A study of Mus musculus with 4 samples.

Results

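The Hox, Pax, Tbx, Gata, Dlx, Lhx, Pou, sine oculis (Six2 to Six6) and Zic genes encode transcription factors that set position and cell type in the embryo. They were chosen by name: every probe set whose array annotation gave exactly 1 symbol of these families, which took 106 of 12422 probe sets that are not controls, and 80 of 8251 named genes. Gene expression had been measured with short oligonucleotide arrays in total RNA of the dentate gyrus, the part of the hippocampus that holds the granule cells. The 4 samples came from young C57BL/6J males that were handled and otherwise left untreated, collected 1, 2, 4 and 6 h after other mice of the experiment, not analysed here, had been shocked for the last time. All 4 are therefore wild-type handled controls, with 1 array per hour, and any mean ± SD below runs over these arrays (n = 4). The labels give no number of mice per RNA and do not say whether mice were pooled, so the spread and the p-values rest on these samples alone and may be partly technical.

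Hox genes lie in clusters and pattern the hindbrain and trunk. In the forebrain of the mouse embryo they are largely off, and Polycomb proteins are known to keep them so. Dlx and Lhx factors specify GABAergic interneurons and other forebrain neurons, Pou3f and Pou6f factors act in developing and mature neurons, and Zic factors act in the dorsal neural tube, the cerebellum and the meninges. Tbx and Gata factors, the sine oculis family and most Pax factors are best known from mesoderm, blood, heart, kidney, pancreas and sense organs. The members were accordingly read in 3 classes, namely 25 probe sets of 20 genes with textbook use in the forebrain or elsewhere in the brain (brain-expressed), 40 of 32 Hox genes, and 41 of 28 genes of other lineages. The antisense RNAs Dlx1as and Dlx6os2 matched the name rule and stand in the last class, and Hoxa11os in the Hox class.

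Most members read low. A probe set reached the intensity filter when its mean log2 value was at or above the 40th percentile of all non-control probe sets, a geometric mean intensity of 101, so 60% of all probe sets reached it. Of the members 28 of 106 did so, or 26.4%. The count was 9 of 25 brain-expressed probe sets (36%), 11 of 40 Hox probe sets (27.5%) and 8 of 41 of other lineages (19.5%). Each class thus lay under the share of the whole array, and the brain-expressed class lay nearest to it. With the Dlx antisense RNAs counted as brain-expressed, that class had 9 of 28 (32.1%). The median geometric mean intensity was 76.2 for the brain-expressed class, 47.3 for Hox and 50.2 for other lineages, against 171 over all non-control probe sets. Values under 16.4, the 10th percentile of all non-control readings, were treated as lying at a floor. In every array 7 of the 106 members lay under it, beside 2.61% of all probe sets. The files carry no detection call, so a low reading is not shown to be absence, and an intensity does not rank the transcript levels of different genes. In bulk tissue, fewer cells of a type and less RNA per cell cannot be told apart.

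**Figure D1:**
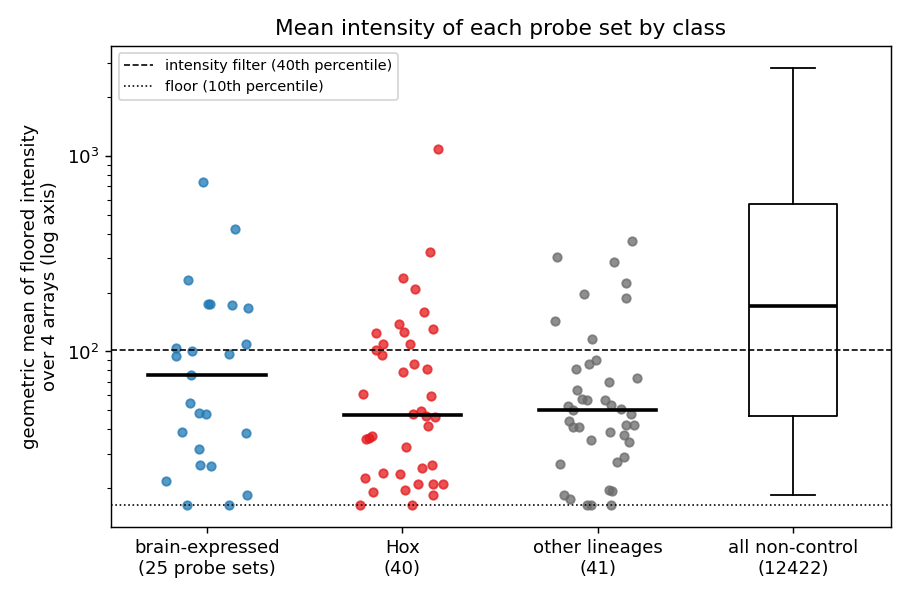
Geometric mean intensity over 4 arrays (log axis) of each probe set by class, 1 point per probe set with the class median as a bar, beside a box for all 12422 non-control probe sets (median, quartiles, whiskers at the 5th and 95th percentiles). The medians of 76.2, 47.3 and 50.2 lie under the filter line at 101, and the median of all probe sets at 171 lies above it.

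The start of a gene shows what these families share apart from their readings. RefSeq promoter windows of the GRCm38.p6 build, from 250 bases before to 50 after the start, were matched for 53 of the 80 genes. Counts below take the window with the most CpG, where CG reads the same on both strands. The members had a median of 18 CpG per window, against 15 over 17486 protein-coding genes of the same table, and 79.2% of members had at least 10, against 59.5%. The median was 18 for brain-expressed, 20 for Hox and 16 for other lineages. Genes with a probe set over the filter had a median of 24.5 (16 genes) and those with none 16 (37 genes). Windows are shown, with CG in capitals, for a bright brain-expressed gene, an interneuron gene, a Hox gene under the floor on every array and a Hox gene with few CpG.
Pou6f1, chr15:100599935-100600234, minus strand: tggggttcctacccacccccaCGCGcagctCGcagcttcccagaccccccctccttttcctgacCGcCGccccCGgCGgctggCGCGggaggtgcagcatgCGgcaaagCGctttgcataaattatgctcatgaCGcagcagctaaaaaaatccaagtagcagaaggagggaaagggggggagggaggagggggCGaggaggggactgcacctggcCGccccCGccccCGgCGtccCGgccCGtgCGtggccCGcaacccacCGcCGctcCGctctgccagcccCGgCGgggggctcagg
Dlx1, chr2:71529195-71529494, plus strand: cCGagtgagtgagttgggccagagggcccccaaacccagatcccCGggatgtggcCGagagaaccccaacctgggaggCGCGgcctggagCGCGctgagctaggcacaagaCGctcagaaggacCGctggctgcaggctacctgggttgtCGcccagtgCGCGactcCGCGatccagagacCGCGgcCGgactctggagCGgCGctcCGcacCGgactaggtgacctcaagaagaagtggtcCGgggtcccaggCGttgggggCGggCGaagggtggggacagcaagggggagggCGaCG
Hoxd13, chr2:74667975-74668274, plus strand: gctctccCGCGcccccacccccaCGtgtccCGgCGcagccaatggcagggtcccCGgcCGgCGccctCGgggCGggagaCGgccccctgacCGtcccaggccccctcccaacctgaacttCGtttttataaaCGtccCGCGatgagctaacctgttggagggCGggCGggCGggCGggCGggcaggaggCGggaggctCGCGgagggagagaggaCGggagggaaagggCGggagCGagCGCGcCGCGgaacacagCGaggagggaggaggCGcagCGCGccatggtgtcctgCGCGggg
Hoxa9, chr6:52227321-52227620, minus strand: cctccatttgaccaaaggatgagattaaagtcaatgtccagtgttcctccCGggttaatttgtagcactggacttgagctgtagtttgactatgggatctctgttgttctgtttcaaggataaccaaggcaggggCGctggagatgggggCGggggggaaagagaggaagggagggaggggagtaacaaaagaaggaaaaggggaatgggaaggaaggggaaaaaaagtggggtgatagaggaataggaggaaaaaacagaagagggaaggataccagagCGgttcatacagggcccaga
The window of Pou6f1 holds 26 CpG, that of Dlx1 27, that of Hoxd13 37 and that of Hoxa9 4. A window rich in CpG thus occurred both in the brightest brain-expressed member and in a member that read under the floor throughout.

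Of the brain-expressed regulators, Pou6f1 and Lhx6 read highest. Pou6f1, a POU-homeodomain factor of the brain, read 672, 732, 840.4 and 733 at 1, 2, 4 and 6 h, a mean intensity of 744 ± 70 (SD, n = 4). Lhx6, the LIM-homeodomain factor of parvalbumin and somatostatin interneurons, read 483, 314, 436 and 479 at these hours. On the probe sets given here all 4 readings lay well over the filter, and the 2 h array was the lowest for Lhx6. Pou6f1 had 3 probe sets, and only this 1 reached the filter.

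The Dlx genes, homeodomain factors of GABAergic interneurons, lay nearer the filter. Dlx1 read 197, 141, 132 and 263 at 1, 2, 4 and 6 h. Dlx2 read 125, 86.2, 122 and 109, and Dlx5 120.2, 67.7, 115 and 128. In Dlx2 and Dlx5, as in Lhx6, the 2 h array was the lowest of the 4. Dlx6 stayed under the filter, with 18, 35.1, 98 and 34.4, and so did Dlx1as and both probe sets of Dlx6os2, whose readings lay between 20.9 and 133.5. All of these lay over the floor of 16.4. Of the interneuron marker probe sets 6 of 10 reached the filter, beside 60% of all probe sets. The summed intensity of the list was 25275, 27451, 27374 and 24653 at 1, 2, 4 and 6 h. Without Cck, its brightest gene, the sums were 13366, 13393, 13830 and 13586. Gad2 and Vip missed the filter, with means of 99.25 and 73.75, and so did a further probe set each of Reln and Pvalb. Sst, the somatostatin gene, was among the brightest of the list, with 4021, 4023, 4013 and 4073. The sum was not lowest at 2 h, and its part in the Dlx and Lhx6 readings was not tested.

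Among the Pou3f genes, POU-homeodomain factors of neural progenitors and cortical neurons, the 1 h array was at least 2-fold under the mean of the later arrays in Pou3f3, which reached the filter, and in Pou3f2, which did not. Pou3f3 (Brn1) read 61.1, 300.3, 190.1 and 261 at 1, 2, 4 and 6 h, so the later 3 arrays lay 4.03-fold over the 1 h array. Pou3f1 (Oct6, also a Schwann cell factor) read 148, 174, 229 and 162, with the 4 h array highest. Pou3f2 (Brn2) read 58.8, 72, 214 and 115 and Pou3f4 38.4, 32.4, 82.2 and 85.4, both under the filter on average. In Pou3f2 the later arrays lay 2.06-fold over the 1 h array, and the 4 h array was again the highest.

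The Zic genes, zinc finger factors, had probe sets on both sides of the filter. Zic1 read 212, 223, 276 and 227, with all 4 arrays over the filter and an SD of 0.17 on the log2 scale. Zic2 read 229, 89.7, 229.7 and 168 on 1 probe set and 71.9, 67.8, 64.4 and 14.5 on the other, which fell under the floor at 6 h. Zic4 read 22.7, 14.3, 19 and 14.4, near the floor. Meningeal markers, which share cells with Zic1, reached the filter in 6 of 13 probe sets, beside 60% of all probe sets. Their summed intensity was 5925, 7289, 8117 and 7851. That sum, like Zic1, was lowest at 1 h and highest at 4 h. Of its probe sets 7 of 13 were highest at 4 h and 3 were lowest at 1 h. Without the brighter Igf2 probe set the sums were 4424, 4413, 4835 and 4582, no longer lowest at 1 h. The part of these cells in the Zic1 values was not tested.

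Pax6, the paired factor of radial glia and of hippocampal progenitors, read 88, 105, 95.7 and 99.1, just under the filter, with an SD of 0.11 on the log2 scale. Its 4 readings lay closer together than those of most members, whose median SD was 0.55, against 0.34 over all probe sets. The anterior forebrain and eye factors read low: Six6 read 11.1, 14.2, 11.2 and 10.4, under the floor in every array. Six3 read 31.4, 3.4, 85 and 50.5 on 1 probe set, while the other read 13.5, 15.9, 14.9 and 16.3, again under the floor. The LIM factors other than Lhx6 also missed the filter. Lhx5, a LIM factor of the embryonic cortical hem, read 30.2, 35.3, 22.8 and 19.8, and Lhx8, of basal forebrain cholinergic neurons, 7.2, 43.7, 85.3 and 10.2. Lhx1, a LIM factor of kidney and Purkinje cells, read 177, 87.2, 44.1 and 49.6, over the filter value at 1 h only. Lhx9 read 14.8, 25.8, 65.7 and 15.7 on 1 probe set and, on the other, 14.9, 19.6, 11.8 and 41.8. The readings of Lhx8 and of both Lhx9 probe sets lay on both sides of the floor.

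**Figure D2:**
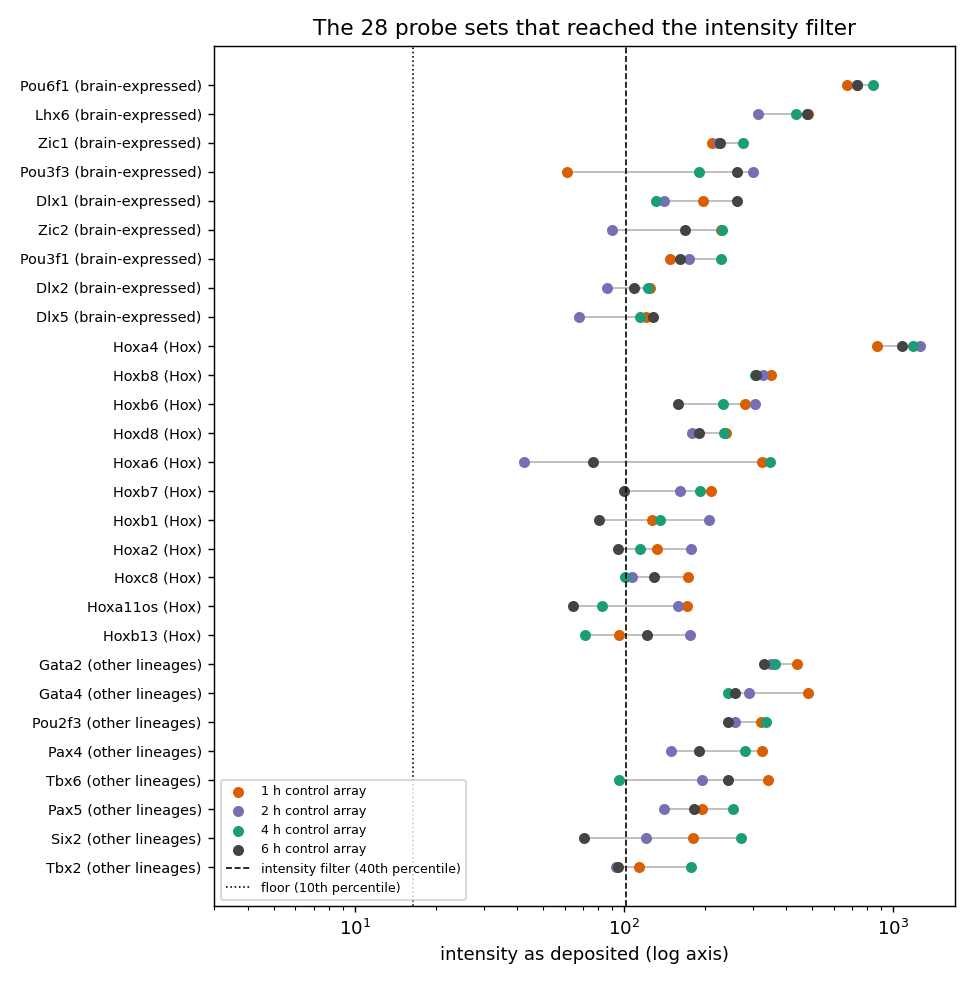
Intensity as deposited (log axis) of the 28 probe sets that reached the filter, with 1 point per array coloured by hour and a line from the lowest to the highest. Pou6f1 and a probe set of Hoxa4 lie farthest right, and Pou3f3 at 1 h (61.1) and Hoxa6 at 2 h (42.4) lie at the left ends of the longest lines.

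Hox genes read low in most positions of the clusters. Paralogue groups 1 to 4 had 3 of 12 probe sets over the filter (25%), groups 5 to 8 had 6 of 14 (42.9%) and groups 9 to 13, the most posterior, had 1 of 12 (8.33%). By cluster the counts were 4 of 16 for Hoxa with Hoxa11os, 5 of 10 for Hoxb, 1 of 5 for Hoxc and 1 of 9 for Hoxd. The share of the whole array was 60%, and no test was made between clusters or groups.

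The brightest Hox probe set belonged to Hoxa4 and was at odds with the other 3 of that gene. It read 866, 1257, 1183 and 1076 at 1, 2, 4 and 6 h, the highest mean of any member at 1096 ± 169.8 (SD, n = 4). The plain probe set of Hoxa4 read 40.9, 41, 65.9 and 42.9. A second _r_at probe set read 79.5, 19.2, 77.4 and 45. The _f_at probe set read 5.7, 2.1, 2.6 and 4.3, under the floor in every array. The bright one has an identifier ending in _r_at, a mark of probe sets that had to break the design rules. Letters before _at mark shared or rule-breaking probes, and 11 of the 40 Hox probe sets carried one, beside 1 of 25 brain-expressed, 8 of 41 of other lineages and 2808 of all 12422. Over the filter they were 4 of 11 Hox probe sets, 0 of 9 brain-expressed, 0 of 8 of other lineages and 1396 of all 7453. With plain identifiers alone, 7 of 29 Hox probe sets reached the filter.

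Those 7 were Hoxb6, Hoxd8, Hoxb7, Hoxb1, Hoxa2, Hoxc8 and Hoxb13. Hoxb6 and Hoxb7 are neighbours in the Hoxb cluster and act in the embryonic trunk. Hoxb6 read 281, 305, 232 and 158 at 1, 2, 4 and 6 h. Hoxb7 read 209, 161, 192 and 99.5. In both the 6 h array was the lowest. For Hoxd8 the brighter probe set gave 239, 179, 234 and 190.1, and the other gave 115, 33.2, 80.7 and 19.8. Hoxc8, another trunk gene, read 172, 107, 100.2 and 129. The readings of Hoxd8 on its brighter probe set all lay over the filter value, while those of the other spanned it.

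Hoxa2 and Hoxb1 pattern hindbrain segments. Hoxa2 read 132, 177, 114 and 94.5. Hoxb1 read 126, 207, 135 and 80.2, and the 2 h array was the highest for both. Hoxb13, a factor of the tail end and of the prostate, read 95.3, 176, 71.6 and 121 and was the 1 member of groups 9 to 13 over the filter. The probe sets with a letter were those of Hoxb8, Hoxa6 and Hoxa11os beside Hoxa4. Hoxb8, a trunk gene also known from blood progenitors, read 351, 327, 305 and 309.6, the steadiest of the 28, with an SD of 0.09 on the log2 scale, yet 121, 8, 18.3 and 50.6 on its other probe set. Hoxa6 read 326, 42.4, 347 and 76.7, the least steady of all members with an SD of 1.52 on the log2 scale, and 4.2, 10.1, 32.4 and 7.6 on the other. For Hoxa6, the 1 h and 4 h arrays were thus high and the 2 h and 6 h arrays low. Hoxa11os, the antisense transcript at Hoxa11, read 171, 159, 82.8 and 64.7, lower at 4 and 6 h than at 1 and 2 h. Its other probe set read 14.3, 27.9, 18 and 11.5, near the floor.

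At the posterior end, Hoxd13, a factor of digits and genital development, read 13.2, 15.2, 13.9 and 11.3 and lay under the floor in every array. Hoxa13, also of the digits, read 26.6, 20.5, 21.1 and 12.5. Hoxd11, of the forearm and kidney, read 37.1, 16.9, 12.9 and 29.9. Readings of both reached under the floor. Hoxa10, of uterus and limb, read 28.6, 7.4, 53.5 and 9. Hoxd12, a limb gene, read 11.7, 68.7, 17.4 and 4.6, with the 2 h array far over the rest. Of groups 9 to 13, 7 of 12 probe sets lay under the floor in at least 1 array. The highest of the Hox probe sets that missed the filter were Hoxc5 (88.1, 63.3, 196 and 95.9), Hoxb3 (126, 181, 59.4 and 62.2) and Hoxa9 (72.7, 76.4, 121 and 82.9). The Hox probe sets not named above also missed it: Hoxa3, Hoxa5, Hoxa7, Hoxa11, Hoxb4, Hoxb5, Hoxb9, Hoxc4, Hoxc9, Hoxd1, Hoxd9 and Hoxd10 read between 1.6, for Hoxc9 at 6 h, and 137.9, for Hoxb5 at 1 h. Hoxb5 and Hoxc4 were over the filter value in the 1 h array, and Hoxc4 in the 4 h array too.

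**Figure D3:**
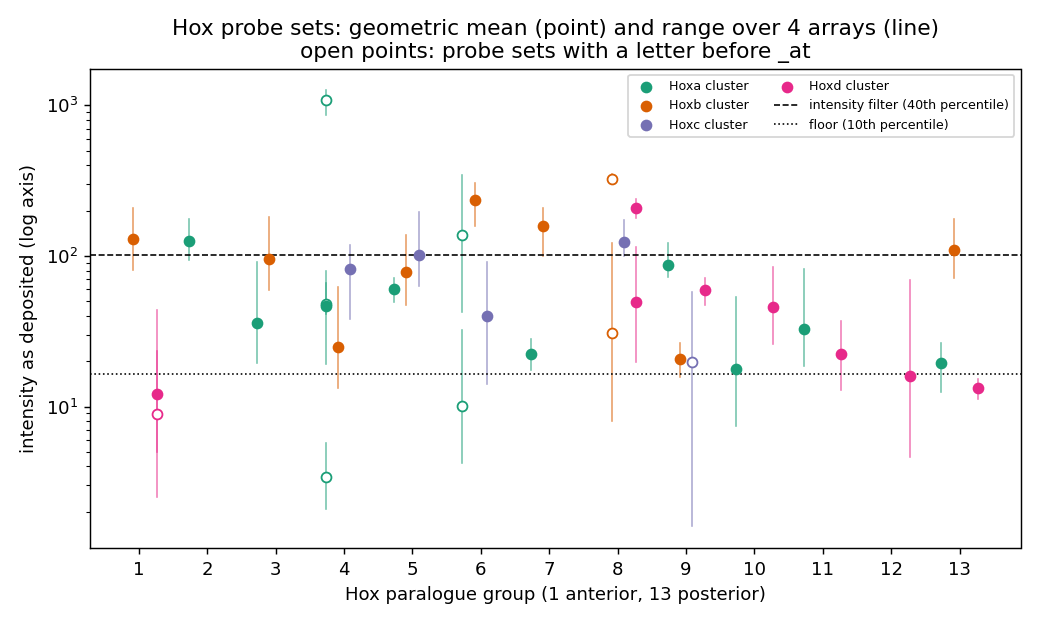
Intensity as deposited (log axis) of each Hox probe set by paralogue group and cluster, as the geometric mean over 4 arrays (point) with the range (line), open points marking identifiers with a letter before _at. Hoxa11os is not drawn. In groups 9 to 13 only Hoxb13 lies over the filter line at 101, and the point at the top is 1 of 4 Hoxa4 probe sets.

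Of the regulators of other lineages, 8 probe sets reached the filter, all with plain identifiers. Gata2, a zinc finger factor of blood progenitors and endothelium, read 439, 350.3, 363 and 329 at 1, 2, 4 and 6 h, a mean of 370.3 ± 47.6 (SD, n = 4). Gata4, of heart and gut, read 480.3, 291, 244 and 257. Both were highest at 1 h, Gata4 by 1.83-fold over the mean of the later arrays. A second probe set of Gata2, ending in _f_at, read 7.1, 10.6, 2.5 and 5.9 and lay under the floor in every array. Of the endothelial markers 5 of 7 probe sets reached the filter, beside 60% of all probe sets. The summed intensities of these markers were 1605, 1387, 1343 and 948. Of the 7, 2 were highest at 1 h and 6 were lowest at 6 h. Without 1 of the 2 Flt1 probe sets the sums were 1278, 1321, 1158 and 893, highest at 2 h. Their part in the Gata2 values was not tested.

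Pou2f3, a POU factor of epidermis and tuft cells, read 321, 257, 335 and 243. Pax4, of pancreatic endocrine cells, read 326, 149.5, 280.4 and 189.5, and Pax5, of B cells and the midbrain-hindbrain border, 195, 141, 254 and 181. A second Pax5 probe set read 34.4, 23.3, 10 and 38.4, on the other side of the filter. Tbx6, of presomitic mesoderm, read 341, 194, 95.8 and 242, with the 1 h array highest and the 4 h array lowest. Tbx2, a repressor in heart and limb, read 114, 93.4, 177 and 94.7, highest at 4 h. Its other plain probe set read 59.4, 116, 66.5 and 51.2. The _r_at probe set of Tbx2 read 24.3, 60.8, 40 and 23.6, and on these 2 the 2 h array was the highest. Six2, of kidney progenitors, read 179.6, 121, 271 and 70.9, a spread of 0.82 (SD) on the log2 scale.

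The others of this class stayed under the filter. Gata1, the erythroid factor, read 166, 83.4, 53.9 and 91.2 on its _f_at probe set and 63.5, 29.5, 45 and 89.7 on the plain one. Pax1, of the vertebral column, read 128, 46.9, 109 and 67. Pou5f1 (Oct4), the pluripotency factor, read 65.6, 103, 103 and 79.5 on an _r_at probe set and 13.2, 21.2, 7.7 and 7.6 on a plain one. In all 3 genes at least 1 array lay under the filter value. Gata3, Gata5, Gata6, Pax2, Pax3, Pax8, Pax9, Lhx3, Pou2f2, Dlx3, Dlx4, Six4, Six5, Tbx3 and Tbx15 had no probe set over it either. Leaving out Tbx15, they read between 6.0, for Six4 at 2 h, and 136.6, for Pax3 at 6 h. Tbx15, a factor of skeleton and skin, had 2 of its 3 probe sets under the floor in every array. The lower of them read 5.3, 5.9, 3.4 and 1.7. The higher of them read 7.7, 14.3, 8.9 and 4.3, and the third probe set read 17.1, 44.7, 36.3 and 20.

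Probe sets of the same gene often disagreed. Of the 80 genes, 19 had several probe sets, 45 in all. In 9 of these genes no probe set reached the filter, in 10 some did and some did not, and in 0 did all reach it. Over all 2073 named genes with several probe sets, none reached it in 17.9%, some in 46.1% and all in 36%. The 10 mixed genes were Hoxa4, Gata2, Pou6f1, Hoxb8, Hoxa6, Pax5, Hoxa11os, Hoxd8, Zic2 and Tbx2. Even Pou6f1, whose brightest probe set was steady, read 113, 114, 77.3 and 80.3 on an _r_at probe set and 14.5, 83.9, 63 and 63.7 on a second plain one. For these 10 genes the filter result thus depends on the probe set read.

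**Figure D4:**
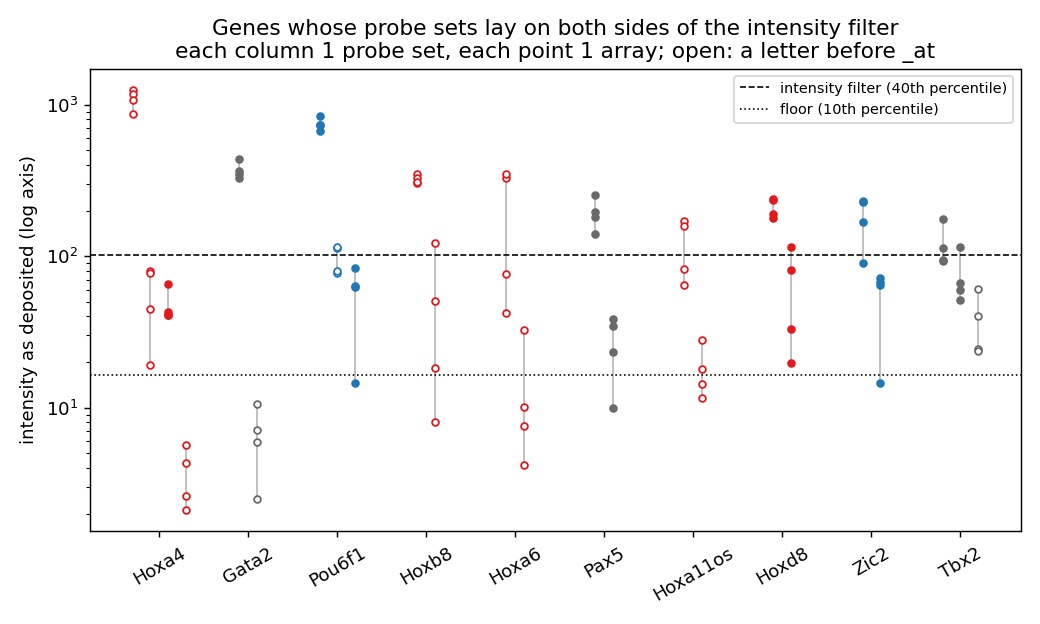
Intensity as deposited (log axis) for the 10 genes whose probe sets lay on both sides of the filter, 1 column per probe set and 1 point per array, blue for brain-expressed, red for Hox and grey for other lineages, open for identifiers with a letter before _at. The probe sets of Hoxa4 run from readings over 866 down to readings under 6.

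The readings were then set along the hours. A linear trend was fitted to log2 intensity with limma over 7453 probe sets that reached the filter, with Benjamini-Hochberg adjustment over all of them. In this test 0 of the 28 members passed an adjusted p of 0.05, where 0.0134% of all probe sets passed. That was 1 probe set, for Ttr, the transthyretin gene of the choroid plexus, which read 225, 444, 1258 and 3009 at 1, 2, 4 and 6 h (limma adjusted p = 0.0232) and no longer passed without the 4 h or the 6 h array. The adjusted p of the members ran from 0.874 to 0.994 in limma. At an unadjusted p under 0.05 there were 2 members, Hoxa11os and Hoxb6, both with negative slopes, beside 4.4% of all probe sets. Their slopes were -0.30 and -0.18 log2 units per hour (SE 0.12 and 0.07), with an adjusted p of 0.874 in limma for either. The slope of Hoxb6 was -0.11 without the 6 h array. With 1 array per hour and 2 residual degrees of freedom, a p over the threshold does not show that levels were steady.

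Among all members, the most positive slopes were those of Pax3, Pou3f4 and Six3, at 0.35, 0.29 and 0.28 log2 units per hour, and the most negative those of Hoxc6, Tbx3 and Zic2, at -0.49, -0.41 and -0.40. All 6 probe sets lay under the filter, so the main test did not take them in. In the fit with no filter 0 of the 106 members passed, and their lowest adjusted p was 0.812 in limma. Pax3, of neural crest and muscle, read 43.1, 28.9, 37.4 and 137, and its slope rests on the 6 h array, being -0.032 without it. Hoxc6 read 70, 90.7, 29 and 14.1, and Tbx3, of limb and heart, 63.1, 40.2, 13.9 and 15.4. The 6 h reading of Hoxc6 and the 4 h and 6 h readings of Tbx3 lay under the floor, where values have no order. The slope of this Zic2 probe set was -0.051 without the 6 h array. With 1 array left out, that of Six3 ran from 0.16, without the 2 h array, to 0.58, without the 6 h array, and that of Tbx3 was -0.65 without the 6 h array.

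By class, slopes were negative in 28 and positive in 10 of 40 Hox probe sets, and negative in 5 and positive in 18 of 25 brain-expressed ones. Over all non-control probe sets 54.8% were negative as deposited and 46.5% with arrays scaled to the same median. Under that scaling the Hox counts were 27 negative and 11 positive, and the brain-expressed counts 5 and 19. Without the 1 h array, brain-expressed slopes were 11 negative and 11 positive, and Hox slopes 23 negative and 12 positive. The negative share of Hox was then 57.5%, against 70% with all arrays, beside 51.5% over all non-control probe sets. The split of the brain-expressed class therefore rests on the 1 h array, and no test was made of either split. At 6 h, 12 of 40 Hox probe sets lay under the floor (30%), against 5 or 6 at the earlier hours. Over all probe sets the share was also highest at 6 h, at 11.8%, against 8.50% at 1 h.

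**Figure D5:**
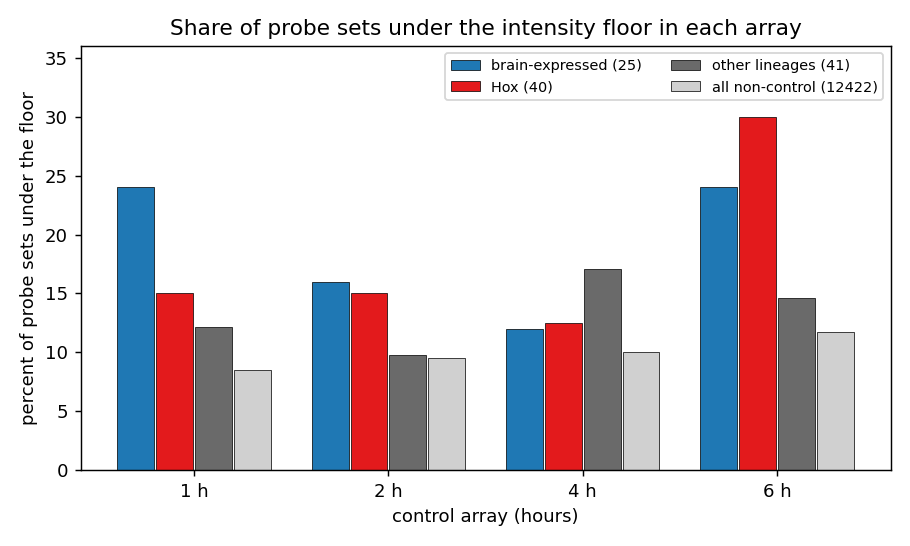
Percent of probe sets under the floor intensity of 16.4 in each control array by class and over all 12422 non-control probe sets. The Hox bar is highest at 6 h (30%), where the bar of all probe sets is also at its highest (11.8%).

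The 1 h array stood apart in Gapdh, with a 3' to 5' intensity ratio of 4.88, against 1.13, 1.33 and 1.24 at 2, 4 and 6 h. The beta-actin ratio differed less, with 2.51 at 1 h, against 1.83, 2.20 and 1.97. Against the mean of the later arrays, 3 of the 28 members (10.7%) were at least 2-fold away at 1 h, where 7.08% of all 7453 probe sets were. At 2, 4 and 6 h the count was again 3 each, beside 3.39%, 2.82% and 2.76%. Pou3f3 was lower at 1 h, as 5.29% of all probe sets were. Hoxa6 and Tbx6 were higher, by 3.13-fold and 2.07-fold, as 1.8% of all probe sets were. Between the highest and the lowest of the 4 arrays, 11 of the 28 members were at least 2-fold apart, beside 18.5% of all probe sets. The 28 members were dimmer than the probe sets they are set beside. Their median intensity was 210.5, 176.5, 231 and 174 at 1, 2, 4 and 6 h, against 442, 462, 447 and 450 over all 7453. The part of intensity in these shares was not tested. Pou3f3 had a slope of 0.28 log2 units per hour (limma adjusted p = 0.874), which was -0.050 without the 1 h array. Without the 4 h array 1 member was left at least 2-fold away, of 27 that then reached the filter. With no filter, 24, 19, 19 and 16 of the 106 members (22.6%, 17.9%, 17.9% and 15.1%) were at least 2-fold from the mean of the other arrays at 1, 2, 4 and 6 h, beside 16.4%, 11.7%, 12.1% and 10.6% of all probe sets. The part of RNA quality in these differences was not tested.

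Genes that act with the members were read as lists. Hox cofactors of the Meis, Pbx and Pknox families, which bind DNA with Hox proteins, had 5 of 8 probe sets over the filter (62.5%). Over all probe sets that share was 60%. Pknox1 read 272, 272, 276 and 246, Pbx3 188, 105, 170.2 and 198 on its brightest probe set and Meis3 126, 155, 147 and 185, and the Pknox1 readings had an SD of 13.6 around a mean of 267 (n = 4). Polycomb and Trithorax genes, which keep Hox genes off or on, had 16 of 23 over the filter (69.6%), beside the same 60%. Cbx6, a Polycomb reader of methylated histone, read 4009, 3335, 3652 and 3842 on an _s_at probe set. Its plain probe set read 859, 1007, 1013 and 1091.5. Kmt2a, the Trithorax methyltransferase that keeps Hox genes active, read 1360, 1199, 1225 and 1073 on its brighter probe set and 538, 592, 619 and 523 on the other. Rnf2, the ubiquitin ligase of Polycomb, read 859, 563, 316 and 389 on 1 of 3 probe sets. The others missed the filter and were highest at 6 h, with 25.6, 84.6, 43.1 and 95.6, and with 65.5, 77.5, 8.6 and 104.9. In both lists 0 probe sets passed the trend test in limma. At an unadjusted p under 0.05 there were 0 cofactor probe sets and 1 of Polycomb and Trithorax, the brightest of Rnf2.

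Regulators outside the families named above were listed by tissue in the same way. Of other forebrain factors, 23 of 30 probe sets reached the filter (76.7%), and of other mesoderm and trunk factors 8 of 38 (21.1%), beside 60% of all probe sets. Probe sets of Nfix, Lmo4 and Nfib, regulators of hippocampal and cortical neurons, were the brightest forebrain factors, at 6801 ± 1036, 3634 ± 948 and 2126 ± 277 (SD, n = 4). The other probe sets of Nfix and Nfib also reached the filter but read lower, with means of 329 and 1394. Probe sets of Eya1, Msx1 and Hand1 were the brightest of the mesoderm list, at 531 ± 29, 455 ± 72.1 and 311 ± 84.3. Eya1 is a partner of Six2 and its relatives. The other probe sets of Eya1 and Hand1 missed the filter, with means of 81.75 and 63.1. Myod1, the muscle factor, still reached the filter, with 295, 199.8, 338 and 187. In both lists 0 probe sets passed the trend test in limma, with 2 forebrain probe sets, of Nfix and Mef2c, and 0 mesoderm probe sets at an unadjusted p under 0.05. Mef2c, a neuronal and muscle factor of the forebrain list, was low at 1 h in both probe sets with the largest slopes. The dimmer read 60.1, 342, 239.7 and 270.3, and the brighter 173, 491, 742 and 675. A further Mef2c probe set was also lowest at 1 h, with 417.5, 678, 937 and 779. Another was lowest at 4 h, with 186, 170, 153 and 245.

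Markers of the tissue and its neighbours were checked by the same filter. It was reached by 6 of 7 granule cell probe sets, 3 of 4 of choroid plexus, 4 of 7 of thalamus, 2 of 3 of blood cells, 1 of 4 of cerebellum and hindbrain and 2 of 6 of pituitary. The share over all probe sets was 60%, and these lists are short. No marker probe set lay under the floor in all 4 arrays. Summed choroid plexus intensities were 639, 639, 1614 and 3497 at 1, 2, 4 and 6 h and, without Ttr, 414, 196, 355 and 488. The summed intensities of blood cells were 3621, 2966, 3904 and 2470, and those of cerebellum and hindbrain 667, 246, 477 and 368. Without Hba-a1 the blood cell sums were 467, 497, 508 and 538, highest rather than lowest at 6 h. Prox1, the granule cell homeodomain factor, read 71.6, 278, 155 and 232, lowest at 1 h like Pou3f3. Of the 7 granule cell probe sets 4 were lowest at 1 h, 2 at 4 h and 1 at 6 h. Neurod1 read 418, 470, 326 and 353. Summed granule cell intensities were 4611, 4732, 4801 and 5230 and, without Prox1, 4539, 4454, 4645 and 4998.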

How the data were processed

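The authors deposited 1 linear intensity value per probe set and array. No software, scaling target or detection call is given in the sources used here, and the 2%-trimmed mean over all 12488 rows was 500.3 in each array, so values were used as deposited. The 66 control rows were left out. Probe sets were named through GEO's annotation of the platform, and all 80 symbols were found in a RefSeq table of GRCm38.p6, and 3 probe sets naming several family genes were not used. Values under the 10th percentile (16.4) were raised to it before taking log2. The trend used limma 3.58.1 in R 4.3.3 (lmFit, eBayes with a trend on intensity, two-sided) on probe sets with a mean log2 of at least 6.66, and was tested on simulated data. The number of arrays limits the precision. Every member over the filter is named, then the 3 brightest below it per class, the 3 largest slopes each way, the largest and smallest SD and their genes' further probe sets. Each list gives its brightest and its largest slopes, here in part. Lhx, Dlx6, Zic4, Hoxa10, Hoxa13, Hoxd11 and Hoxd12 values below the filter were chosen after they were seen. Members, classes and lists were chosen with earlier results of these data known. The lists were Hox cofactors, Polycomb and Trithorax, other forebrain, other mesoderm and trunk factors, and markers of granule cells, interneurons, meninges, choroid plexus, thalamus, endothelium, blood, cerebellum and hindbrain, and pituitary. Alternatives changed the scaling, floor, filter, time scale, variance prior, class, probe set type and arrays used.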

Additional observations from a re-analysis of the deposited data

Results flagged for a closer look

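Among the named members, 56 probe sets had a spread over the 4 arrays, and in 4 of them 1 array lay far from the other 3 by Dixon's ratio on the log2 scale with readings raised to the floor of 16.4. Chance flags about 1 in 20 groups of unfloored values, a rate that does not hold where several readings share the floor. All 4 probe sets lay under the intensity filter, and 0 of the 4 stood out in the 1 h array. A Hoxa4 probe set read 65.9 at 4 h, against 40.9, 41 and 42.9 in the others. A probe set of Hoxa6 read 32.4 at 4 h, with the others under the floor. The plain Pou5f1 probe set read 21.2 at 2 h, with the others under the floor. In these 2 probe sets the floor alone makes the ratio 1. On the readings as deposited, an alternative chosen after seeing the data, it was 0.571 for Hoxa6 and 0.462 for Pou5f1, under the critical value. The second Zic2 probe set read 14.5 at 6 h, against 71.9, 67.8 and 64.4. As deposited, Hoxa4 and Zic2 kept ratios of 0.900 and 0.931, and a Pou6f1 probe set, low at 1 h with 14.5, had 0.837. Of the 46 named probe sets with no reading under the floor, 1 was past the critical value, that of Hoxa4.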

How the results depend on the processing

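In limma, 0 members passed the trend test under each of the 11 alternatives, with 0 to 5 at an unadjusted p under 0.05. Over all probe sets 1 passed, and 0 with no filter, 0 with a variance prior without a trend, and 0 to 1 when 1 array was left out (0 without the 4 h or the 6 h array). With a filter at the 60th percentile, 7 of 106 members reached it, beside 4969 of all 12422 probe sets. By class, 2 of 25 brain-expressed and 2 of 40 Hox probe sets did, and the rest were of other lineages. With plain identifiers 7 Hox probe sets reached the main filter. Members at least 2-fold away at 1 h numbered 24 with no filter, 0 with the stricter filter and 1 to 3 with a later array left out; without the 1 h array that count could not be made. Positive slopes of the brain-expressed class numbered 11 to 15 with 1 array left out, an alternative chosen after seeing the data like the class and identifier ones. The slope of Pax3 then ran from -0.032 to 0.56 and that of Pou3f3 from -0.050 to 0.43. The cause of these changes was not tested. The other counts stayed within 1.5 times. The other named slopes kept their sign, but with 1 array left out that of Zic2 ran from -0.51 to -0.051, Six3 from 0.16 to 0.58, Hoxb6 from -0.24 to -0.11 and Tbx3 from -0.65 to -0.32. No paired analysis was possible because there is 1 group and 1 array per hour.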
